A study of Rattus norvegicus with 10 samples.

Results

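The genes of the T cell receptor complex and its first signalling steps were followed across 10 rat mammary tumours. The 8 genes were taken by name: the CD3 chains Cd3d, Cd3e and Cd3g, the kinases Zap70 and Lck, the adhesion receptor Cd2 and the co-receptors Cd4 and Cd8a. Each was represented by 1 probe, so 8 of the 41012 probes of the array belong to this set. Tumours of the maternal Western-style diet group (W1 to W5) came from female Sprague-Dawley rats whose dams ate a diet high in fat and low in fibre and trace elements. The dams received it on gestational days 12 to 20 and again while nursing, on postnatal days 1 to 21. Tumours of the maternal control diet group (C1 to C5) came from female Sprague-Dawley rats whose dams ate control diet. All daughters, in both groups, ate control diet after weaning and were injected intraperitoneally at 3 weeks of age with the carcinogen N-methyl-N-nitrosourea at 50 mg/kg, and the tumours were taken at 110 days. The tumours were of tubular or papillary type, and no healthy mammary gland is among the samples analysed here. Each tumour was hybridised to 1 one-colour Agilent array. The labels do not state if each tumour had its own rat, litter or dam, so the p-values measure the spread between these tumours only.

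T cells recognise antigen through a receptor whose variable chains have almost no intracellular part. The CD3 gamma, delta and epsilon chains and the zeta chain carry the signal: Lck, brought in by the co-receptors CD4 or CD8, phosphorylates their cytoplasmic motifs, and Zap70 binds the phosphorylated motifs and passes the signal on through adaptors such as Lat and Lcp2 (SLP-76). CD3 chains are made almost only by T cells and are widely used to find T cells in tumours. In rats CD4 is also found on macrophages and CD8 alpha on natural killer cells, so the co-receptors mark T cells less strictly than CD3 does.

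Levels are log2 of the background-subtracted spot signal minus log2 of the 75th percentile of the same array, so that a level of 0 is that percentile and 1 unit is a doubling. Levels of different probes cannot be compared with each other. The 75th percentile lay between 72.8 and 170 intensity units in the WD group (median 98.6) and between 85.0 and 226 in the CD group (median 190). Between 16685 and 21905 probes were well above background on a WD array and between 18587 and 21461 on a CD array. All 8 luminal epithelial markers looked for in the labelled tissue, Epcam, Cdh1, Krt8, Krt18 and Krt19 among them, were measured. The arrays lay on 3 slides. Slide 1 held W1, W2 and C2, slide 2 held W3, W4, C3 and C5, and slide 3 held W5, C1 and C4.

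Of the 8 genes, 4 were measured well on every array: Cd3d, Cd3e, Cd3g and Zap70 were well above background on 10 of 10 arrays. Lck and Cd8a were well above background on 4 arrays each, Cd2 on 3 and Cd4 on 0. The test took genes whose probe passed that mark on 5 or more arrays. There were 16779 such genes, and Lck, Cd8a, Cd2 and Cd4 are not among them. Of the 16779, 8270 had a gene symbol. The others are accessions without one, each counted as a gene, so shares of all tested genes are shares of these entries. These 4 members are described apart, by their values.

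Cd3g, Cd3d and Cd3e are consecutive protein-coding genes on rat chromosome 8 in the RefSeq annotation of the GRCr8 assembly, and Zap70 lies on chromosome 9. Cd3g and Cd3d lie on opposite strands with their starts facing away from each other, and Cd3e lies on the strand of Cd3g. Their promoters are shown because the 4 genes varied together from tumour to tumour. Each sequence runs from 250 bases before to 50 bases after the annotated start, 5′ to 3′ on the strand of the gene, as given by RefSeq for GRCr8. The windows are chr8:54185269-54185568 (plus strand) for Cd3d, chr8:54211721-54212020 (minus strand) for Cd3e, chr8:54183869-54184168 (minus strand) for Cd3g and chr9:46485355-46485654 (plus strand) for Zap70. Capitals mark matches, on either strand, to core motifs of transcription factor families that act in T cells: GGAAG of ETS factors, CAGNTG of E proteins, TGTGGT or TGCGGT of RUNX factors and AGATAA of GATA factors.
Cd3d promoter: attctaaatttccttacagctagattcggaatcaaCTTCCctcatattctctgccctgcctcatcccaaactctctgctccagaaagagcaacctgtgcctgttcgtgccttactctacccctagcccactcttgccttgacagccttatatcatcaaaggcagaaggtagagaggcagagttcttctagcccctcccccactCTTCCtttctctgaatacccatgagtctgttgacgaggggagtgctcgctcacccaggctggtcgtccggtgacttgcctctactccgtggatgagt
Cd3e promoter: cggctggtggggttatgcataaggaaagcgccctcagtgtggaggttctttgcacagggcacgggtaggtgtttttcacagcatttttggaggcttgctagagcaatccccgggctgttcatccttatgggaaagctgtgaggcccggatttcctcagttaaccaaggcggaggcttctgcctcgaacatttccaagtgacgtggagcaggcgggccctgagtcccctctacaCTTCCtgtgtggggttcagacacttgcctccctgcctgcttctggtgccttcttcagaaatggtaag
Cd3g promoter: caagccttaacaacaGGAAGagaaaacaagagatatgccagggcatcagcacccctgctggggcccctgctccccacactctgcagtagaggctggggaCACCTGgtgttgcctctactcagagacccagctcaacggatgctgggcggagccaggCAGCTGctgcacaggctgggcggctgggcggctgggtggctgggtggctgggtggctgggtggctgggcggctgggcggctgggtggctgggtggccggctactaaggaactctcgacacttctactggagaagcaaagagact
Zap70 promoter: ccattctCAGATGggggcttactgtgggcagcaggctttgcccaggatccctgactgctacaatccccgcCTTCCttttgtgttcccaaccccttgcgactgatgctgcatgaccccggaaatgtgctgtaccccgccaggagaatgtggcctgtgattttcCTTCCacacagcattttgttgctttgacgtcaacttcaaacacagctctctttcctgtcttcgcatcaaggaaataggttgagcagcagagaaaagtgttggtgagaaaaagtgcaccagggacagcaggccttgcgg
The ETS core was present in all 4 windows, with 2 matches for Cd3d, 1 for Cd3e, 1 for Cd3g and 2 for Zap70. It was also present in 70.1% of the 33469 promoter windows of the same length in the table, so its presence does not set these genes apart. The E protein core was found in 2 places for Cd3g and 1 for Zap70 (50.2% of all windows had it), and in 0 for Cd3d and Cd3e. The RUNX core (22.9% of all windows) and the GATA core (11.6%) were in none of the 4 windows. No 2 matches overlapped. Only the spellings given above were searched, so other forms of the same sites are not marked or counted. A match is a string of letters and says nothing of binding.

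The 3 CD3 chains and Zap70 each had a higher mean in the WD group, by 1.76-fold to 2.07-fold, and in each case 4 of the 5 WD tumours lay above the highest CD tumour while W2 lay among the CD tumours. None passed the test. In limma, 0 of the 4 had an adjusted p under 0.05, as did 0% of the 16779 genes tested. At an unadjusted p under 0.05, 4 of the 4 were higher, where 7.80% of all tested genes were, and 0 of the 4 were lower, where 7.72% of all tested genes were (15.5% in either direction). With array brightness as a covariate 0 of the 4 had an unadjusted p under 0.05, and with normexp background correction 2 of the 4. The groups did not overlap for 0 of the 4, and for 3.65% of all tested genes. The genes had been singled out with earlier results of these arrays known, so this count is a description. Their median difference, 1.00, compares with 0.01 over all tested genes, and between 1.25% (Cd3g) and 3.27% (Cd3d) of tested genes had a larger difference.

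Cd3d (probe A_42_P579174) encodes the delta chain, which pairs with CD3 epsilon. Its level was 2.83, 2.41, 3.81, 3.58 and 2.89 in W1 to W5, against 2.81, 2.36, 2.55, 2.11 and 1.59 in C1 to C5. The groups overlapped through W2, which lay below C1 and C3, and W3 and W4 were the highest of all 10 tumours. The mean was 3.10 ± 0.58 in the WD group and 2.28 ± 0.46 in the CD group (SD, n = 5 each). The difference was 0.82 (SE 0.30), or 1.76-fold, and did not pass (limma, adjusted p 0.244).

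Cd3e (probe A_44_P103225) encodes the epsilon chain, a partner of both other CD3 chains and a usual target of antibodies that stain T cells. Its level was -0.58, -0.90, 0.69, 0.06 and -0.53 in W1 to W5, against -0.77, -1.23, -0.73, -1.37 and -1.95 in C1 to C5. W3 and W4 were again highest and C5 lowest, and W2 lay below C1 and C3. The mean was -0.25 ± 0.63 in the WD group and -1.21 ± 0.50 in the CD group (SD, n = 5 each). The difference was 0.96 (SE 0.32), or 1.94-fold, and did not pass (limma, adjusted p 0.216).

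Cd3g (probe A_42_P598602) encodes the gamma chain, the other partner of CD3 epsilon. Its level was 2.86, 1.80, 3.81, 3.31 and 3.02 in W1 to W5, against 1.82, 2.16, 2.47, 1.40 and 1.70 in C1 to C5. Here W2 lay below the CD mean as well, so that 4 of 5 WD tumours were above it. The mean was 2.96 ± 0.74 in the WD group and 1.91 ± 0.42 in the CD group (SD, n = 5 each). The difference was 1.05 (SE 0.34), or 2.07-fold, and did not pass (limma, adjusted p 0.207).

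Zap70 (probe A_44_P994692), the kinase that docks on the phosphorylated CD3 and zeta chains and is also made by natural killer cells, had levels of 1.31, 0.51, 2.22, 1.63 and 0.84 in W1 to W5, against 0.39, 0.77, 0.68, -0.34 and -0.15 in C1 to C5. C4 and C5 were the lowest tumours, and W2 lay below C2 and C3. The mean was 1.30 ± 0.67 in the WD group and 0.27 ± 0.50 in the CD group (SD, n = 5 each). The difference was 1.03 (SE 0.33), or 2.05-fold, and did not pass (limma, adjusted p 0.207). In bulk tumour RNA such as this, fewer cells of a type and less RNA per cell cannot be told apart.

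**Figure D1:**
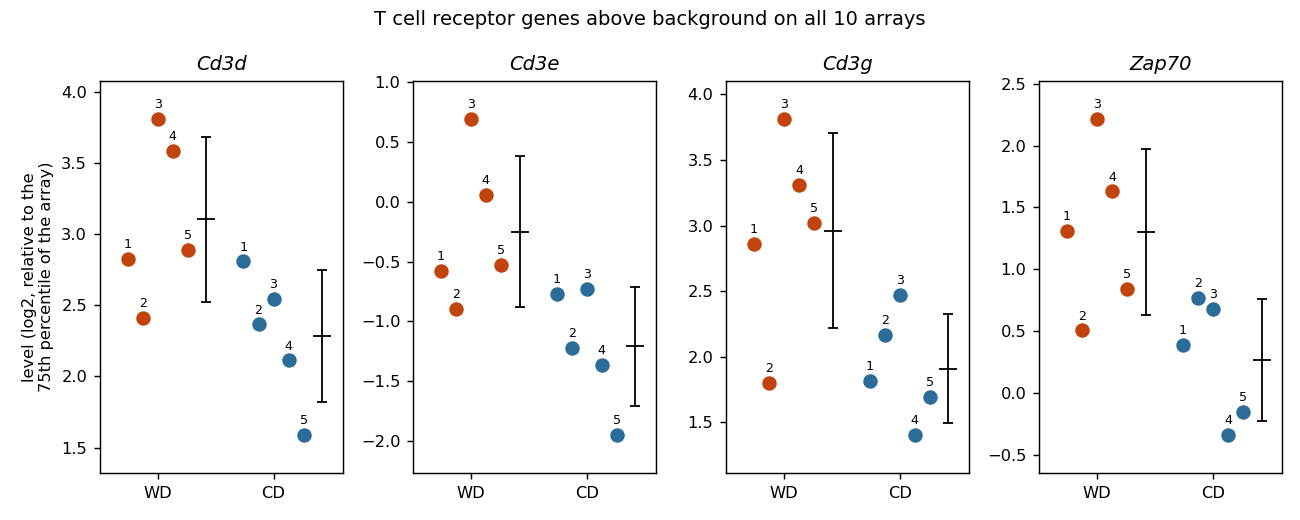
Level of Cd3d, Cd3e, Cd3g and Zap70 in each tumour (log2, relative to the 75th percentile of the array), with the replicate number above each point. The WD group is left and the CD group right of each panel, and the bar is the mean with the SD (n = 5 each). In every panel W3 is highest, 4 WD tumours lie above the highest CD tumour, and W2 lies within the CD range.

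The size of these differences varied between slides and with how brightness was treated. Within slide 1 (W1 and W2 against C2) the differences were small, 0.25 for Cd3d, 0.49 for Cd3e, 0.17 for Cd3g and 0.14 for Zap70. Within slide 2 (W3 and W4 against C3 and C5) they were 1.63, 1.72, 1.48 and 1.66 in the same order. Within slide 3 (W5 against C1 and C4) they were 0.43, 0.54, 1.41 and 0.82. Each slide gave the same direction. These contrasts rest on 1 or 2 tumours per group, so slide and tumour cannot be told apart. A fit that took slide as a block gave differences of 0.89, 1.03, 1.08 and 0.99. WD arrays were dimmer than CD arrays in the median. The dimmest array, W3 (75th percentile 72.8), and the brightest, C5 (226), both lay on slide 2. With array brightness as a covariate the differences were 0.55 for Cd3d, 0.54 for Cd3e, 0.82 for Cd3g and 0.68 for Zap70, with adjusted p between 0.856 and 0.858 in limma. With normexp background correction Cd3e differed by 0.42, and in the deposited log2 matrix by 0.47. Beyond these fits, the part of brightness in the differences was not tested.

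**Figure D2:**
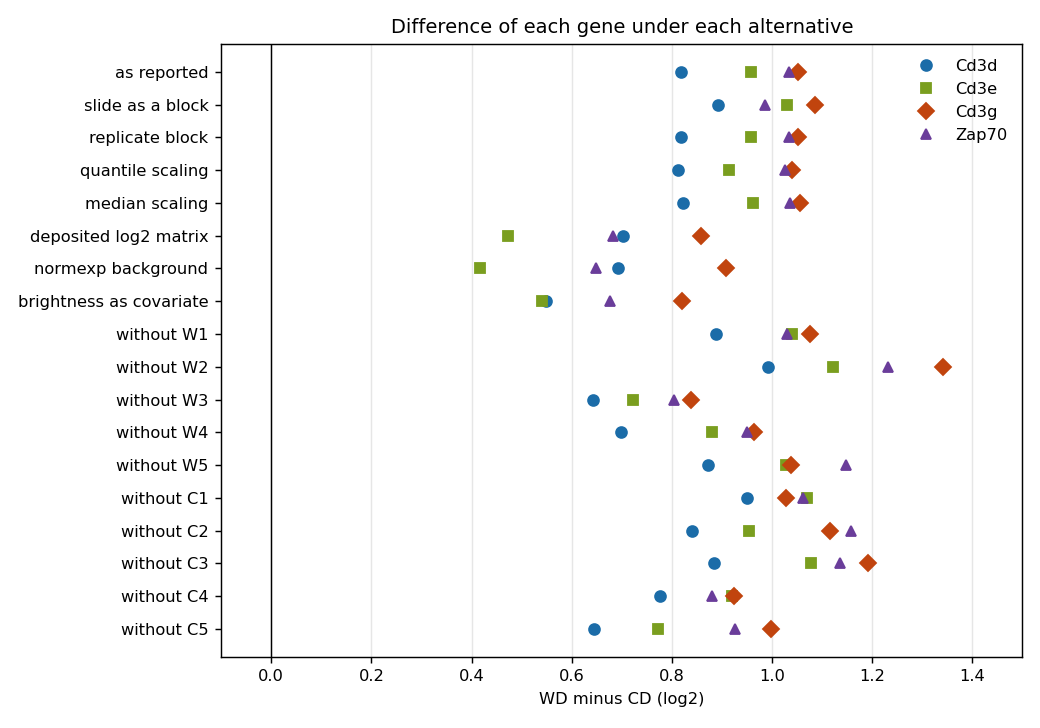
WD minus CD difference (log2) of Cd3d, Cd3e, Cd3g and Zap70 as reported and under the alternatives in levels, model or tumours, 1 row each. All values lie right of 0, the lowest at 0.42 for Cd3e with normexp background correction and the highest at 1.34 for Cd3g without W2.

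The 4 genes gave nearly the same order of tumours. W3 ranked first and W4 next for each of them, and C4 and C5 filled the last places. W3 also had the dimmest array (75th percentile 72.8) and C5 the brightest (226). W2, with the next dimmest array (81.0), ranked only 7 or 8. The part of brightness in this order was not tested. Over the 10 tumours the levels of Cd3d and Cd3e had a Pearson correlation of 0.98 (Spearman 0.99). The other 5 pairs ran from 0.87 (Cd3d and Cd3g) to 0.95 (Cd3g and Zap70). With the group means removed the 6 correlations lay between 0.77 and 0.97. Within the 5 WD tumours they ran from 0.90 to 0.97. Within the 5 CD tumours Cd3d and Cd3e stayed at 0.97, but Cd3d and Cd3g were at 0.46 and Cd3e and Cd3g at 0.55. The genes of 1 tumour share its array, and with it the labelling and the brightness, so these values are a description.

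The mean of the 3 CD3 chains was 1.70, 1.10, 2.77, 2.32 and 1.79 in W1 to W5, against 1.29, 1.10, 1.43, 0.72 and 0.44 in C1 to C5. The WD tumours were spread more widely than the CD tumours, and W2 and C2 had the same value to 2 decimals.

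The remaining 4 genes lay at the edge of detection. Lck (probe A_44_P511304), the kinase that starts the signal, was at -1.80, -2.81, -1.99, -2.67 and -2.62 in W1 to W5, against -3.24, -1.99, -3.00, -3.04 and -2.51 in C1 to C5. It was well above background in W1, W5, C2 and C5 only, and the groups overlapped. Cd2 (A_44_P411954), an adhesion receptor of T and natural killer cells, was at -1.87, -4.04, -1.89, -2.21 and -2.54 in W1 to W5, against -3.12, -2.62, -2.81, -4.07 and -3.34 in C1 to C5. It was well above background in W1, W5 and C2 only. The groups overlapped, with W2 and C4 lowest. Cd8a (A_44_P448431), the alpha chain of the cytotoxic T cell co-receptor, was at -1.18, -2.29, -2.09, -0.88 and -2.92 in W1 to W5, against -2.86, -1.15, -3.80, -3.07 and -2.44 in C1 to C5. It was well above background in W1, W4, C2 and C5, that is in 2 tumours of each group, and the groups overlapped. Cd4 (A_43_P11522), the co-receptor of helper T cells, was not well above background on any array. Its signal lay between -4.22 and -2.33 in the WD group and between -4.78 and -3.34 in the CD group, and no fold is given for it.

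Differences of these dim probes cannot be read as those of Cd3d, Cd3g and Zap70. Cd3e was well above background on every array, but it was not bright. It lay 0.95 (W2) to 2.72 (W5) above the dimmest probe that passed that mark on the same array, so its size is less certain too. Probes that were well above background on 0 arrays had a median difference of 0.56, against -0.00 for those well above background on 10 arrays. The difference was 0.38 for Lck and 0.80 for Cd8a, against a median of 0.18 over the 773 probes that were well above background on 4 arrays, of which 36.9% and 13.1% differed by more. For Cd2 it was 0.68, against a median of 0.31 over the 919 probes with 3 such arrays, of which 23.5% differed by more. Without a filter on dim probes these 3 genes had adjusted p of 0.295 to 0.406 in limma. In the deposited log2 matrix the differences of Lck, Cd2 and Cd8a were -0.02, 0.18 and 0.06. A planned comparison of Cd8a with Cd4 within each tumour was not made, because Cd4 had no level above background.

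**Figure D3:**
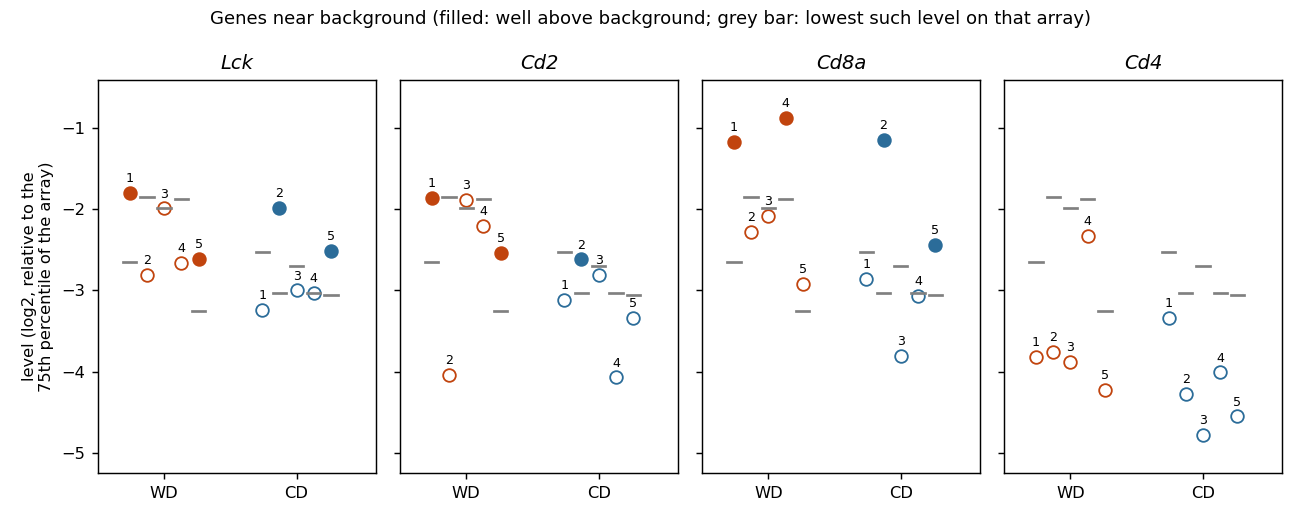
Level of Lck, Cd2, Cd8a and Cd4 in each tumour (log2, relative to the 75th percentile of the array), WD group left and CD group right. Filled points were well above background, open points were not, and the grey bar is the level of the dimmest probe that passed that mark on the array. Filled points number 4 for Lck, 3 for Cd2, 4 for Cd8a and 0 for Cd4.

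Other genes of the receptor pathway showed how far the pattern extended. Of 27 listed signalling partners 19 had a probe and 12 were measured, of which 11 had a higher mean in the WD group and 1 (Fyn) a lower one, with a median difference of 0.72. A higher WD mean was found for 51.4% of all tested genes. At an unadjusted p under 0.05 there were 5, all higher, and 0 passed after adjustment (limma). Cd6, a receptor that tunes T cell activation, was at 2.18, 1.42, 2.75, 2.57 and 1.88 in W1 to W5, against 1.03, 1.44, 1.22, 0.75 and 0.79 in C1 to C5, a 2.16-fold difference (adjusted p 0.181, limma). Only W2, just below C2, kept the groups from separating. Skap1, an adaptor of integrin activation, was 2.25-fold higher, the costimulatory receptor Icos 2.12-fold, the exchange factor Vav1 1.85-fold and the adaptor Lcp2 1.48-fold, all above the CD mean in 5 of 5 WD tumours. Skap1 was well above background on 5 of 5 WD and 3 of 5 CD arrays. Vav1 was so on 3 of 5 WD and 2 of 5 CD arrays, and Icos on 4 of 5 WD and 5 of 5 CD arrays. Icos was at -2.78 to -2.08 in the CD group, where the lowest level well above background was -3.06 to -2.535. The sizes for Skap1, Vav1 and Icos are therefore uncertain. Cd247, the zeta chain that completes the receptor, and the costimulatory receptor Cd28 were not well above background on any array.

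Cd8b, the beta chain that pairs with CD8 alpha on T cells, is named here after its values were seen, since its probe was above background on more arrays than that of Cd8a. It was at -1.10, -2.19, -0.23, 0.32 and -1.59 in W1 to W5, against -2.34, -0.77, -1.39, -2.92 and -2.05 in C1 to C5. C2 was high here as it was for Cd8a, and W2 was low. The difference was 0.94 (SE 0.51; limma, adjusted p 0.392), and the probe was well above background on 4 of 5 WD and 3 of 5 CD arrays.

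Inhibitors of the pathway showed a smaller median. Of 17 listed, 14 had a probe and 7 were measured, 4 higher and 3 lower, with a median difference of 0.13. Mean list levels were 0.87 to 1.28 in the WD group and 0.94 to 1.02 in the CD group. Pdcd1 was not well above background on any array. Whole-tumour RNA does not show which cells made the 7 measured genes, so their median cannot be read as that of inhibitors in T cells. The phosphatase Ptpn22, which acts on Lck and Zap70, was 1.57-fold higher (adjusted p 0.322, limma). Of 14 transcription factors of T cells 5 were measured, 3 higher and 2 lower, with a median of 0.35. That median was the difference of Gata3, at 2.21 ± 0.39 in the WD group and 1.86 ± 0.74 in the CD group (SD, n = 5 each). Whole-tumour RNA does not show which cells made these factors, so the median cannot be read as that of T cells. Tox, linked to lasting T cell stimulation, was 1.37-fold higher (adjusted p 0.267, limma). Foxp3, the factor of regulatory T cells, and Tbx21 were not well above background on any array.

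Receptors for T cell growth and homing had a median difference of 0.92 over the 4 measured of 12 listed, all 4 higher. The interleukin receptor chains Il7r and Il2rb were 2.10-fold and 1.71-fold higher. Of 10 cytotoxic and effector genes 4 were measured, all with a higher WD mean and a median of 0.45, and 0 had an unadjusted p under 0.05. The pore-forming Prf1 and the granule gene Nkg7 were 1.59-fold and 1.37-fold higher with adjusted p of 0.556 and 0.621, both above the CD mean in 3 of 5 WD tumours. Prf1 was well above background on 4 of 5 WD and 2 of 5 CD arrays, so its size is uncertain. Ifng, Tnf and Il2 were not well above background on any array. Of 11 ligands and antigen-presenting partners 6 were measured, 4 higher and 2 lower, with a median of 0.16. Cd48, the ligand of CD2 in rodents, was at -0.60 ± 0.29 in the WD group and -0.51 ± 0.22 in the CD group (SD, n = 5 each; limma, adjusted p 0.828).

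**Figure D4:**
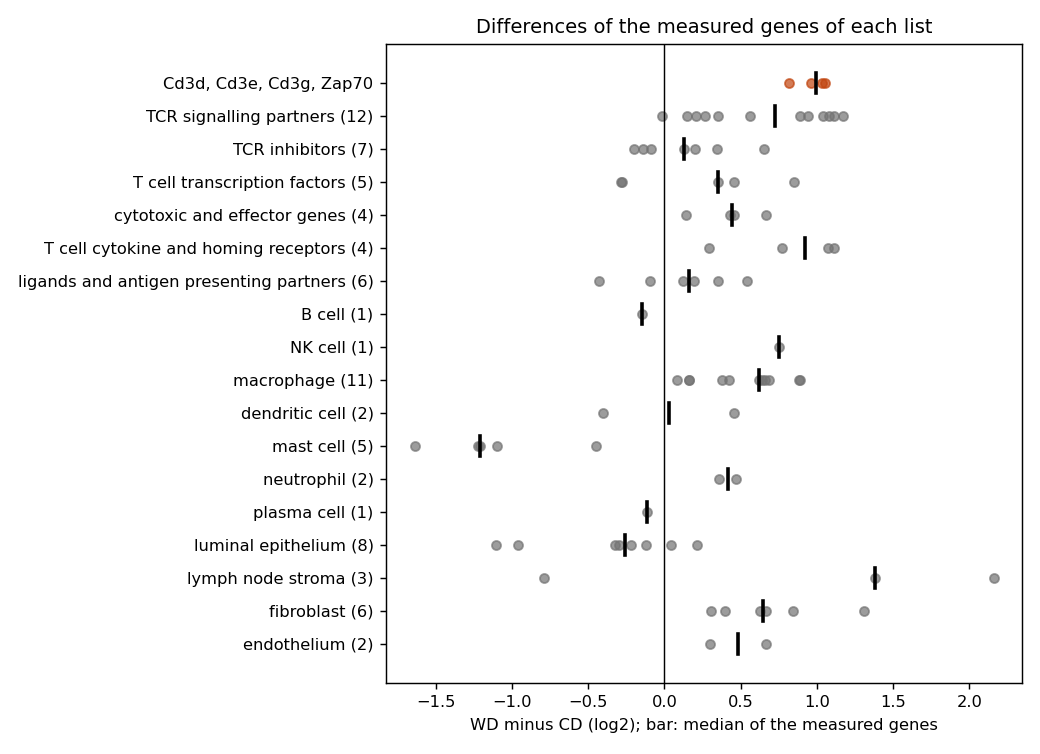
WD minus CD difference (log2) of every measured gene of each list, with the number measured in brackets and the median as a bar. Cd3d, Cd3e, Cd3g and Zap70 lie between 0.82 and 1.05, the signalling partners have a median of 0.72, the inhibitors 0.13 and the mast cell markers -1.21.

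Genes whose pattern was most like that of CD3 were looked for among 8255 named genes, by the Pearson correlation with the mean of the 3 CD3 chains over the 10 tumours. Among the first 8 were Tbc1d10c (0.97), Ptprc (0.97), Tnfrsf14 (0.97), Rasal3 (0.96), Myo1g (0.96), Laptm5 (0.96) and Dennd1c (0.96). Ptprc, which encodes CD45, is made by nearly all leukocytes, and Laptm5 and Tnfrsf14 are likewise not limited to T cells. With group means removed, 5 of these 7 were again among the first 8 (Rasal3, Ptprc, Tbc1d10c, Tnfrsf14 and Laptm5), with values of 0.93 to 0.96, joined by Cnppd1 (0.94) and Adipor2 (0.93). Over the levels themselves Cnppd1 was at 0.86 and Adipor2 at only 0.38. The WD minus CD difference of Adipor2 was -0.16. With so many genes and 10 tumours, values this high at the top of a ranking are a description only.

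Ptprc was at -0.24, -0.50, 0.75, 0.76 and -0.05 in W1 to W5, against -0.81, -0.80, -0.42, -1.18 and -1.40 in C1 to C5. The difference was 1.06 (SE 0.28), or 2.09-fold, with adjusted p 0.181 in limma. W3 and W4 were highest, as for CD3. Set against Ptprc in the same tumour, a scale chosen after the data were seen, the CD3 and Zap70 differences were nearer to 0, at -0.25 for Cd3d, -0.11 for Cd3e, -0.01 for Cd3g and -0.03 for Zap70. Cd3d minus Ptprc was 2.96 ± 0.10 in the WD group and 3.20 ± 0.27 in the CD group (SD, n = 5 each). Ptprc was itself near the top of the ranking by likeness to CD3, at 0.97, so values nearer to 0 on this scale follow in part from that choice. The WD mean of the CD3 genes was higher by about as much as that of Ptprc, and no test was made of the remaining differences.

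Markers of other cell types moved in part with these genes. Over all tested genes 51.4% had a higher WD mean. At an unadjusted p under 0.05 (limma), 7.80% were higher and 7.72% lower. All 11 measured macrophage markers of 12 had a higher WD mean, with a median of 0.62, 2 of them at an unadjusted p under 0.05 and 0 after adjustment (limma). Their mean level ran from 1.41 to 3.42 in the WD group and from 1.96 to 2.64 in the CD group, and W2 was the lowest of all 10 tumours. All 6 fibroblast markers were higher as well, with a median of 0.65 and mean levels of 1.84 to 3.79 in the WD group and 1.22 to 3.20 in the CD group. Of the 8 luminal epithelial markers 6 were lower (2 of them at an unadjusted p under 0.05) and 2 higher, with a median of -0.26 and mean levels of 3.48 to 4.17 in the WD group and 3.85 to 4.69 in the CD group. The keratin Krt19 had a mean 2.15-fold lower in the WD group and Krt8 a mean 1.94-fold lower (limma, adjusted p 0.213 for Krt19 and 0.231 for Krt8). The 5 measured mast cell markers of 7 all had a lower WD mean, with 1 at an unadjusted p under 0.05, a median of -1.21 and mean levels of -2.28 to 1.26 in the WD group and 0.00 to 1.84 in the CD group. The 2 measured endothelial markers of 5 had a median of 0.48, the 2 neutrophil markers of 6 a median of 0.42 and the 2 dendritic cell markers of 6 a median of 0.03. The part of other cell types in the CD3 differences was not tested.

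Mammary glands hold lymph nodes, which are rich in T cells, and markers of node stroma and B cells were therefore listed. Cxcl13, a chemokine of B cell follicles, was at 2.52, -1.28, 3.23, 1.94 and -0.11 in W1 to W5, against -0.81, -0.60, 0.26, -1.65 and -1.70 in C1 to C5, a 4.46-fold difference (adjusted p 0.239, limma). Ccl21, which draws T cells into nodes, was at 3.80, -0.99, 1.20, 2.30 and 2.49 in W1 to W5, against 0.26, 3.46, 0.38, -0.98 and -1.23 in C1 to C5 (2.60-fold, adjusted p 0.511). W1 had the highest Ccl21 and C2 came next, whereas W3 led for Cxcl13 and for CD3. Glycam1, the third measured gene of the 6 listed, differed by -0.79 (limma, adjusted p 0.818). It was well above background on 2 of 5 WD and 3 of 5 CD arrays. Its levels ran from -3.63 to 1.45 in the WD group and from -4.56 to 2.40 in the CD group. Madcam1 and Cr2 were not well above background on any array. The mean of the 3 measured node genes ran from -0.42 to 1.23 in the WD group and from -2.49 to 1.75 in the CD group. Because Glycam1 enters this mean, its size is uncertain. Which cells made the 3 genes cannot be seen in whole-tumour RNA, so their mean cannot be read as a measure of node tissue. Of the 5 B cell genes with a probe, Blk and Cr2 were among those not well above background on any array, and the 1 measured gene, Fcmr, was at -0.11 ± 0.46 in the WD group and 0.04 ± 0.78 in the CD group (SD, n = 5 each). Of the 5 natural killer genes with a probe, Ncr1, Klrd1 and Ncr3 were not well above background on any array. Klrk1, which some T cells also make, was 1.68-fold higher (adjusted p 0.347, limma) and was well above background on 3 of 5 WD and 2 of 5 CD arrays. The 1 measured plasma cell gene, Sdc1, also an epithelial gene, differed by -0.11.

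**Figure D5:**
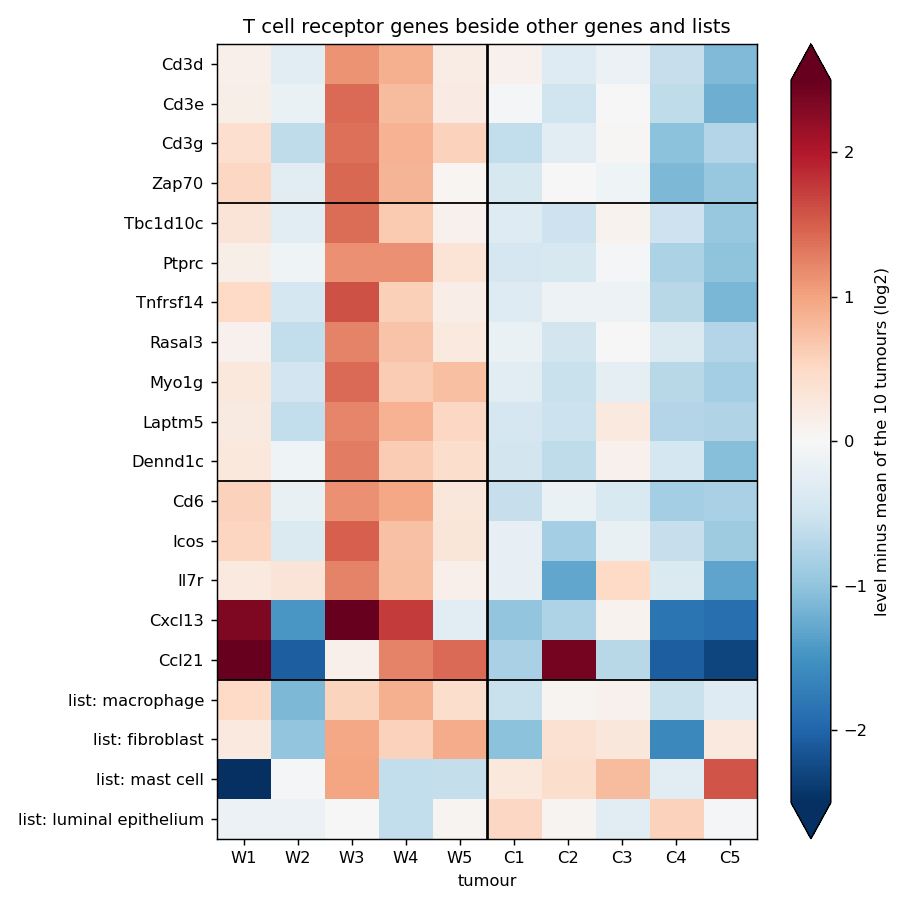
Level of each gene, or mean level of each list, minus its mean over the 10 tumours (log2, colour scale ending at 2.5 units either way), WD tumours left of the black line and CD tumours right. The blocks are Cd3d, Cd3e, Cd3g and Zap70, 7 of the genes of most similar pattern, further T cell and node genes, and lists of other cell types. W3 and W4 are highest for the upper 2 blocks except that W4 is below W5 for Myo1g, C4 and C5 are low, and W2 is lowest in the macrophage row.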

How the data were processed

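The authors deposited 1 Agilent Feature Extraction output per tumour, with background-subtracted spot intensity and marks of 0 or 1 for background and saturation, per the file headers (version 11.5.1.1; the submitters' processing notes name 15.5). They also deposited a matrix of log2 values, with no processing step stated in the labels; from its values it is quantile-normalised median signal, and it was used as an alternative. The 43379 measuring spots were averaged to 41012 probes, of which 17502 were named through RefSeq (GRCr8). Levels were log2 intensity minus the 75th percentile of each array. Probes well above background on at least 5 of 10 arrays were kept, 1 per gene (highest mean level), and 16779 genes were fitted with limma 3.58.1 in R 4.3.3, WD against CD, with Benjamini-Hochberg adjustment over all of them. No measuring spot was saturated. The procedure was tested on simulated data with genes drawn independently. It recovered 36% of 100 2-fold changes and 91% of 100 4-fold changes, with 7 false calls among 134. The 8 genes and all lists were chosen with earlier results of these data known. Genes named are the 8, up to 5 of smallest unadjusted p per list, Ptprc, Cd247, Cd48 and the most similar patterns; Fyn and genes given only as not above background complete a count; some genes these rules name are not reported here. Cd8a minus Cd4 was planned and not tested, since Cd4 was never well above background. Median signals replaced mean signals in the normexp alternative. Each slide was scanned once, and effects of slide and of scan cannot be told apart. Same-numbered tumours were not paired (correlation of their deviations -0.02 to 0.16).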

Additional observations from a re-analysis of the deposited data

Results flagged for a closer look

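Of 176 groups of 5 tumours examined, 6 held a tumour far from the other 4; chance gives about 1 in 20 groups. In the WD group, W2 was far below the others for the macrophage receptor Mrc1 (-0.24, others 1.38 to 1.90), the matrix gene Dcn (1.09, others 3.49 to 4.37) and the mean of the macrophage markers (1.41, others 2.96 to 3.42). W2 was also the WD tumour of lowest Cd3d, Cd3e, Cd3g and Zap70. W3 was far below the other WD tumours for the transcription factor Lef1 (-1.17, others 0.19 to 0.50), and far above them for the mean of the ligands and antigen-presenting partners (0.99, others -0.01 to 0.24). In the CD group, C3 was far below the others for the keratin Krt8 (3.36, others 4.43 to 4.82).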

How the results depend on the processing

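Under all 20 alternatives 0 genes passed the adjusted threshold in limma, among them 0 of Cd3d, Cd3e, Cd3g and Zap70 (with no filter, 0 of the 8); leaving out each tumour in turn also gave 0 to 0 in both counts. Genes with an unadjusted p under 0.05 numbered 2603 as reported, 496 with normexp, 963 with brightness as a covariate and 7055 with no filter. Of Cd3d, Cd3e, Cd3g and Zap70 these were 4 as reported, 2 with normexp, 0 with brightness as a covariate and 3 without C5. The lowest adjusted p of any gene was 0.136 as reported and lay between 0.0741 and 0.999 over the alternatives. The median difference of Cd3d, Cd3e, Cd3g and Zap70 ran from 0.76 (without W3) to 1.18 (without W2), and from 0.61 (brightness as a covariate) to 1.01 (slide as a block). The 4 genes kept their direction under every alternative. With the replicate block the median stayed at 1.00, 0 genes passed, and the lowest adjusted p was 0.217; the block changed no call. Lck, at 0.38 as reported, turned to -0.0198 in the deposited log2 matrix; the cause was not tested. Lck, Cd2 and Cd8a have no value where a probe must be well above background on all 10 arrays, and Cd8a minus Cd4 was not run. The difference of Cd2 ran from 0.46 (without C4) to 1.07 (without W2) and that of Cd8a from 0.51 (without C3) to 1.17 (without C2). Setting genes against Ptprc was chosen after seeing the data. The number of arrays limits the precision, and signal near background limits Lck, Cd2, Cd8a and Cd4.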
